A study of Saccharomyces cerevisiae with 16 samples.

Results

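The nuclear-encoded subunits of the mitochondrial respiratory chain and ATP synthase were followed in cells of the budding yeast *Saccharomyces cerevisiae* that carried or lacked *TIF3*. This gene encodes eIF4B, a factor of translation initiation. The members were chosen by gene name: 38 names were given, and 37 of them had a row in both deposited tables, out of 5338 genes listed in either table. They comprised 2 NADH dehydrogenases, 4 subunits of complex II, 9 of complex III, 1 cytochrome c, 7 of complex IV and 14 genes of the ATP synthase, including the gene of its inhibitor protein. The 38th name, of complex IV, was not analysed here.

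Wild-type *TIF3* cells (strain FJZ46) and *tif3*Δ cells (strain FJZ52) were grown in synthetic complete medium, shifted to 37 °C in experiment 1 or to 15 °C in experiment 2, and treated with cycloheximide, an inhibitor of translation elongation, before harvest. Ribosome-protected fragments (footprints) and mRNA were sequenced in 16 libraries, 2 for each of the 8 combinations of genotype, temperature and library type. Each group of libraries is represented by a single log2 normalised value for a gene. Single libraries were not analysed here, so the differences carry no test and no spread between samples, and "higher" and "lower" describe group values alone. Translational efficiency (TE) stands for footprints relative to mRNA, and every difference is *tif3*Δ minus wild type on the log2 scale.

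Yeast lacks the large proton-pumping complex I, and NADH is oxidised instead by small enzymes of the inner membrane. Electrons from these enzymes and from complex II (succinate dehydrogenase) pass through ubiquinone to complex III (cytochrome bc1), then by cytochrome c to complex IV (cytochrome c oxidase), which reduces oxygen. The ATP synthase uses the resulting proton gradient. Core subunits of complexes III and IV and of the membrane part of the ATP synthase are made inside mitochondria, and all members here are made on cytosolic ribosomes and imported. Cells growing on glucose ferment and keep many of these genes low, and the Hap complex, whose activating subunit is Hap4, is a known activator of respiratory genes and binds the sequence CCAAT.

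The depth and the labels were checked first. The spacing of the lowest values put the wild-type footprints at about 17500000 and those of *tif3*Δ at 11900000 at 37 °C, and at 5400000 and 1800000 at 15 °C, while for mRNA the depth is unknown. All 37 members passed the minimum set for a gene to be tested, a mean normalised value of 10 over the 2 genotypes in both library types. The fewest footprints were about 285 in wild type (*QCR9*) and 413 in *tif3*Δ (*INH1*) at 37 °C, and about 206 and 54 for the same genes at 15 °C. Counting alone gives each footprint difference a standard error of 0.018 to 0.111 at 37 °C and 0.039 to 0.214 at 15 °C. *TIF3* mRNA was 272-fold lower in *tif3*Δ at 37 °C and 18.3-fold lower at 15 °C in the authors' deposited table. The groups also differed in mating-type genes. In wild type at 37 °C the mRNA of 7 genes specific to a cells lay between -7.90 and -0.80 log2 units relative to the median gene, with no footprint listed for *MFA1*, and that of 4 genes specific to α cells between -1.60 and 3.10. In wild type at 15 °C, under the same strain label, the a-specific genes lay between -1.50 and 3.50, while the 2 α-specific genes with a row lay at -3.00 and -1.40. In *tif3*Δ at 37 °C both lists were higher than in wild type, in 7 of 7 and 4 of 4 genes, and their log2 summed mRNA was 11.9 against 9.19 and 15.4 against 12.8. At 15 °C these sums were 12.2 against 12.0 for the a-specific and 6.11 against 6.41 for the α-specific genes. The part of these differences in the results below was not tested, and each result at 37 °C and 15 °C stands against its own wild type.

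In wild type nearly all members had higher TE than the median gene, 36 of 37 at 37 °C and 37 of 37 at 15 °C. Their median log2 TE levels were 1.15 and 0.70 above it. The members are short, with a median coding length of 462 nt against 1266 nt for all genes tested at 37 °C. Wild-type levels and densities were not compared with genes of similar length. The members' mRNA level was lower than that of the median gene for most at 37 °C (14 of 37 above it, median -0.60). It was higher for most at 15 °C (24 of 37 above it, median 0.50). Each level is relative to its own table, since the tables were normalised separately. *QCR6*, the acidic hinge protein of complex III, was the exception at 37 °C, with a wild-type TE level of -0.36, and it stood at 0.34 at 15 °C. The highest wild-type TE level was that of *QCR10*, a small subunit of complex III, at 2.13 above the median gene at 37 °C and 1.68 at 15 °C.

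Divided by coding length, footprints give a density for each gene. Neither protein nor the speed of elongation was measured, so how much of each subunit was made was not tested. At 37 °C wild type, the α and β subunits that form the catalytic ring of the ATP synthase had the highest densities of all members, 5.18 normalised footprints per coding nucleotide for *ATP1* (α) and 6.17 for *ATP2* (β), against 0.373 for the median gene. The γ subunit gene *ATP3*, which encodes the central shaft inside the ring, stood at 2.38, so α was at 2.18 times and β at 2.59 times its density. The δ and ε subunit genes *ATP16* and *ATP15*, also of the shaft, stood at 3.06 and 4.28. The stalk genes *ATP4*, *ATP5*, *ATP7* and *ATP14* lay between 1.81 and 2.68. The genes of the subunits at the dimer interface, *TIM11* (subunit e) and *ATP20* (subunit g), were lowest in the complex, at 1.14 and 1.08. In complex III the core proteins *COR1* and *QCR2* were close, at 2.02 and 1.93. In complex IV the 7 genes lay within a 2.29-fold range, from 1.32 for *COX4* to 3.02 for *COX7*. Complex II was uneven, from 0.559 for the flavoprotein gene *SDH1* to 2.16 for the membrane anchor gene *SDH3*, and the internal NADH dehydrogenase *NDI1* had the lowest density of all members at 0.376, close to the median gene. At 15 °C *ATP2* at 2.59 and *ATP1* at 2.27 again had the highest wild-type densities, *ATP3* stood at 1.25, and the median gene was at 0.123.

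**Figure D1:**
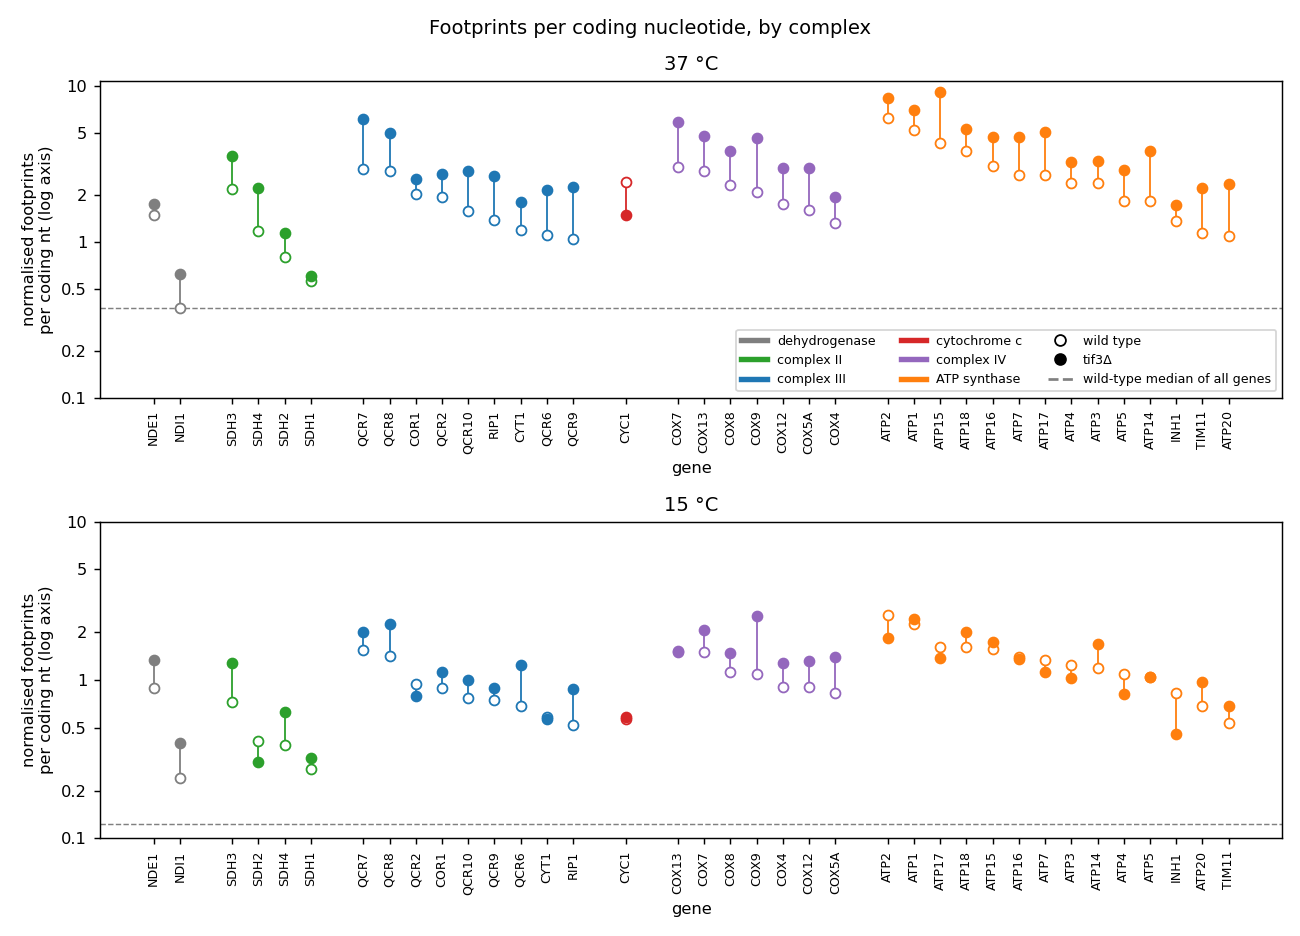
Normalised footprints per coding nucleotide (log axis) of the 37 genes at 37 °C (top) and 15 °C (bottom), ordered by wild-type value within each complex. Open points are wild type, filled points *tif3*Δ, 1 group value each, and the dashed line is the wild-type median of all genes tested (0.373 and 0.123). *ATP2* and *ATP1* lead in wild type, and at 37 °C every filled point but that of *CYC1* lies above its open point.

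Without eIF4B at 37 °C, nearly all members carried more footprints. Of the 37, 36 were higher and 24 at least 1.5-fold higher, with a median difference of 0.73 (1.65-fold). Of all 5197 genes tested, 51.9% were higher and 12.1% at least 1.5-fold higher, with a median of 0.02. The exception was *CYC1*, which was at least 1.5-fold lower, as were 13.2% of all genes. The count held across the complexes, with 2 of 2 dehydrogenases, 4 of 4 genes of complex II, 9 of 9 of complex III, 7 of 7 of complex IV and 14 of 14 of the ATP synthase higher, at medians of 0.47, 0.61, 0.85, 0.77 and 0.64. The mRNA was higher for 31 of 37, against 48.9% of all genes tested, with a median of 0.29. It was at least 1.5-fold higher for 8 members and lower for 1, against 8.79% and 8.87% of all genes.

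TE at 37 °C was higher for 27 members and lower for 10, with a median of 0.44, against 52.6% of all genes higher, 47.4% lower and a median of 0.04. TE was at least 1.5-fold higher for 10 members and at least 1.5-fold lower for 0, against 10.3% and 11.1% of all genes. The sign divided the members by coding length. All 27 members of up to 735 nt, *ATP4* being the longest, had higher TE, and all 10 members from 801 nt (*SDH2*) upwards had lower TE, a boundary chosen after the values were seen. Some of the lower values are close to 0, as for *SDH2* (-0.03), *COR1* (-0.05) and *CYT1* (-0.08). The counting standard errors of their footprint differences are 0.070, 0.035 and 0.052, so the sign of *SDH2* in particular is not sure. Other genes of up to 735 nt had higher TE in 89.4% of 1185 cases with a median of 0.43, near the 0.47 of the short members, and other genes from 801 nt upwards had lower TE in 60.1% of 3825 cases with a median of -0.11, against -0.14 for the long members. Across the 37 members the Spearman correlation of TE difference and coding length was -0.74, against -0.65 across 5195 genes, and these points share the same libraries.

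**Figure D2:**
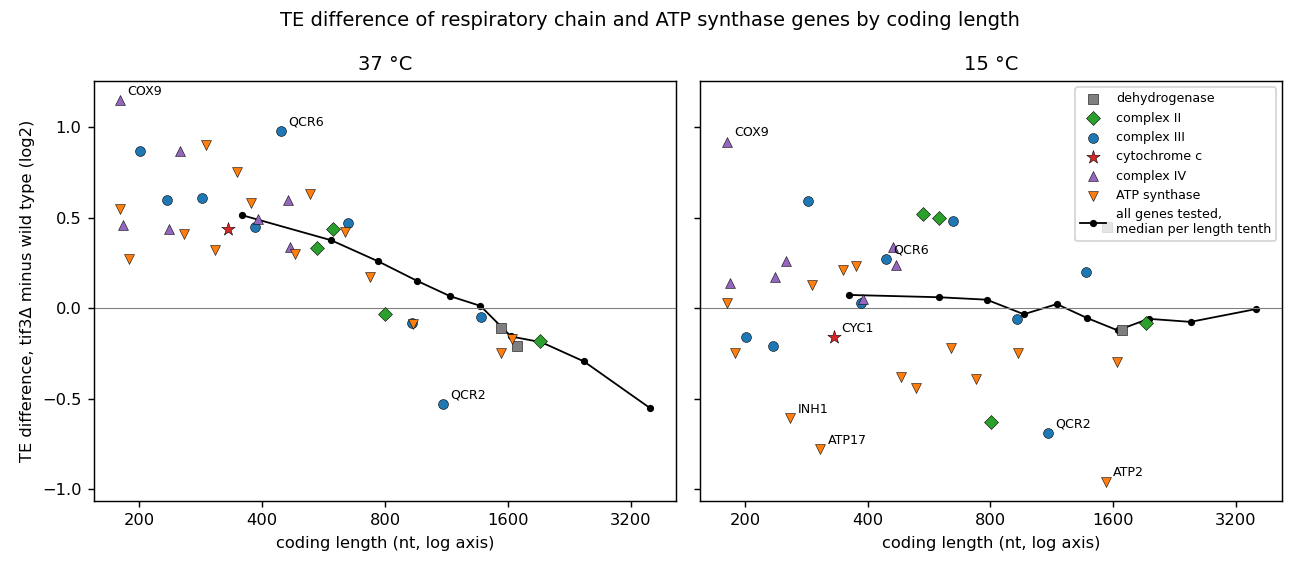
TE difference (log2, *tif3*Δ minus wild type) against coding length (nt, log axis) at 37 °C (left) and 15 °C (right), 1 point per gene, with shape and colour for the complex. The black line joins the medians of all genes tested in 10 classes of coding length. At 37 °C the members fall from the short to the long genes as the line does, with *COX9* at 1.15 and *QCR2* at -0.53 the farthest above and below it, and at 15 °C the line is nearly flat and the ATP synthase genes lie mostly below 0.

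Compared with genes of their own length, the members stood higher in footprints and mRNA and were spread around 0 in TE. Each difference was centred on the median of all genes in the same length class, of 10 classes with equal gene numbers. On this scale TE at 37 °C had a median of -0.02, with 17 members above and 20 below genes of similar length, against 50.0% of all genes on either side, and the quartiles of all genes were -0.21 and 0.21. In TE 1 member (*COX9*) was at least 1.5-fold above and 1 (*QCR2*) at least 1.5-fold below its class, against 5.08% and 6.24% of all genes. The footprint difference had a median of 0.52 (1.43-fold), with 36 of 37 members above, and the mRNA difference one of 0.51 (1.42-fold), again with 36 of 37 above, against 50.0% of all genes for each by construction. Members at least 1.5-fold above genes of their length numbered 15 of 37 for footprints and 14 of 37 for mRNA, against 10.3% and 8.29% of all genes. The lowest members other than *CYC1* stood at 0.06 for footprints and 0.14 for mRNA. Genes of up to 735 nt other than the members had a median mRNA difference of -0.22 at 37 °C, so *COX12* and *COX9*, with mRNA differences of -0.10 and -0.01 in the authors' deposited table, were still above their length class.

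**Figure D3:**
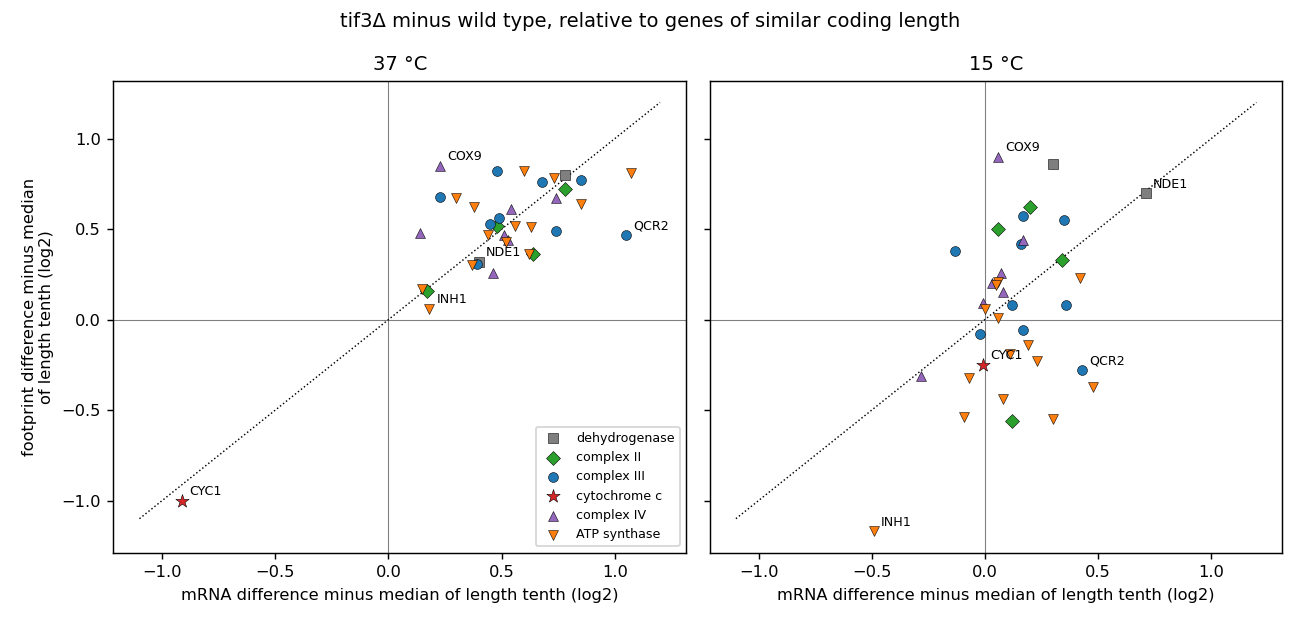
Footprint difference against mRNA difference (log2, *tif3*Δ minus wild type), each minus the median of all genes in the same length class, at 37 °C (left) and 15 °C (right). On the dotted line TE equals that of genes of similar length. At 37 °C 36 of 37 genes lie above 0 on both axes and *CYC1*, at -0.91 in mRNA, below 0 on both; at 15 °C the genes scatter around 0 in footprints.

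Among the electron donors at 37 °C, *NDI1*, which oxidises NADH inside mitochondria, had log2 mRNA of 8.6 in wild type and 9.4 in *tif3*Δ and footprints of 9.18 and 9.90. Its differences in the authors' deposited table were 0.82 for mRNA, 0.71 for footprints and -0.11 for TE. *NDE1*, which oxidises cytosolic NADH, had 0.44, 0.24 and -0.21 in the authors' deposited table. In complex II the membrane anchor genes *SDH3* and *SDH4* and the catalytic genes *SDH1* and *SDH2* (the iron-sulfur subunit) parted by TE. The authors' deposited table gave TE differences of 0.44 and 0.33 for the anchors and -0.18 and -0.03 for *SDH1* and *SDH2*, at footprint differences from 0.10 (*SDH1*) to 0.91 (*SDH4*). The anchors are also the shorter genes, at 597 and 546 nt against 1923 and 801 nt. Relative to genes of similar length, TE stood at 0.06 and -0.04 for *SDH3* and *SDH4* and at 0.01 and -0.29 for *SDH1* and *SDH2*.

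In complex III the largest mRNA difference was that of *QCR2*, a core protein gene, with log2 mRNA of 9.5 in wild type and 10.5 in *tif3*Δ and footprints of 11.06 and 11.55. Its mRNA was 2.02-fold higher and its TE 1.44-fold lower in the authors' deposited table, the lowest TE difference of all members, and 0.59 log2 units below genes of its length. *COR1*, its partner in the core, had differences of 0.37 in mRNA and -0.05 in TE in the authors' deposited table. For *QCR6* the reverse held, with mRNA at 9.3 in both genotypes and footprints at 8.93 and 9.90. The authors' deposited table put its TE 1.98-fold higher, and thereby at 0.61 above the median gene in *tif3*Δ against -0.36 in wild type. *RIP1*, the Rieske iron-sulfur protein, had differences of 0.95 in footprints and 0.47 in TE, and *CYT1*, cytochrome c1, 0.60 and -0.08 in the authors' deposited table. The remaining small subunits *QCR7*, *QCR8*, *QCR9* and *QCR10* had, in the authors' deposited table, 1.76- to 2.15-fold more footprints and TE differences between 0.45 and 0.87. *QCR9* and *QCR10* are also the members whose coding sequence holds an intron in the RefSeq annotation.

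*CYC1*, the main cytochrome c gene, went the other way in mRNA and footprints. Its log2 mRNA was 8.1 in wild type and 7.0 in *tif3*Δ, and its footprints were 9.65 and 8.94, or about 1093 and 453. The authors' deposited table gave 2.22-fold lower mRNA, 1.64-fold fewer footprints and 1.36-fold higher TE. TE was therefore close to that of genes of its length (-0.07), and the footprints were not. The minor cytochrome c gene *CYC7* had, in the authors' deposited table, 1.47-fold higher mRNA, from a wild-type level 4.60 log2 units below the median gene and about 59 footprints.

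In complex IV all 7 genes had more footprints and higher TE at 37 °C, against 51.9% and 52.6% of all genes. All 7 fall in the shortest length class, of up to 471 nt, where 93.1% of genes had higher TE. Relative to that class, 3 stood above and 4 below in TE, and all 7 above in footprints. *COX9*, subunit VIIa and among the shortest members at 180 nt, had mRNA of 7.6 in both genotypes and footprints of 8.55 and 9.69. In the authors' deposited table its TE was 2.22-fold higher, the highest of all members and 0.64 above genes of its length. *COX12*, subunit VIb, followed at 1.83-fold, with mRNA of 7.5 and 7.4, in the authors' deposited table. The others, *COX4*, *COX5A*, *COX7*, *COX8* and *COX13*, had TE differences between 0.34 and 0.60 and mRNA differences between 0.21 and 0.49 in the authors' deposited table. *COX5B*, the isoform of *COX5A* used when oxygen is low, had a footprint difference of -0.02 and *COX5A* one of 0.89 in the authors' deposited table.

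In the ATP synthase all 14 genes had more footprints at 37 °C, against 51.9% of all genes. For the abundant α and β genes the mRNA difference exceeded the footprint difference. *ATP1* mRNA was 11.1 in wild type and 11.7 in *tif3*Δ with footprints at 13.05 and 13.49, and *ATP2* mRNA was 11.5 and 12.2 with footprints at 13.21 and 13.63. Their TE differences in the authors' deposited table were -0.17 and -0.25. The short gene *TIM11* had its difference in TE, with mRNA at 7.3 in both genotypes, footprints at 8.38 and 9.34 and a TE difference of 0.90 in the authors' deposited table. *ATP15*, the ε subunit, had the largest mRNA difference of the complex, 0.82, and the second largest footprint difference, 1.09, in the authors' deposited table. Its density came to 9.13 footprints per coding nucleotide in *tif3*Δ, above *ATP2* at 8.28 and *ATP1* at 7.01, which both exceeded it in wild type. The ratio of ε to γ density was 1.8 in wild type and 2.78 in *tif3*Δ, while those of α and β to γ were 2.13 and 2.52 in *tif3*Δ, near their wild-type values. *INH1*, the inhibitor of ATP hydrolysis by the enzyme, had the smallest footprint difference of the complex, 0.34, in the authors' deposited table.

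**Figure D4:**
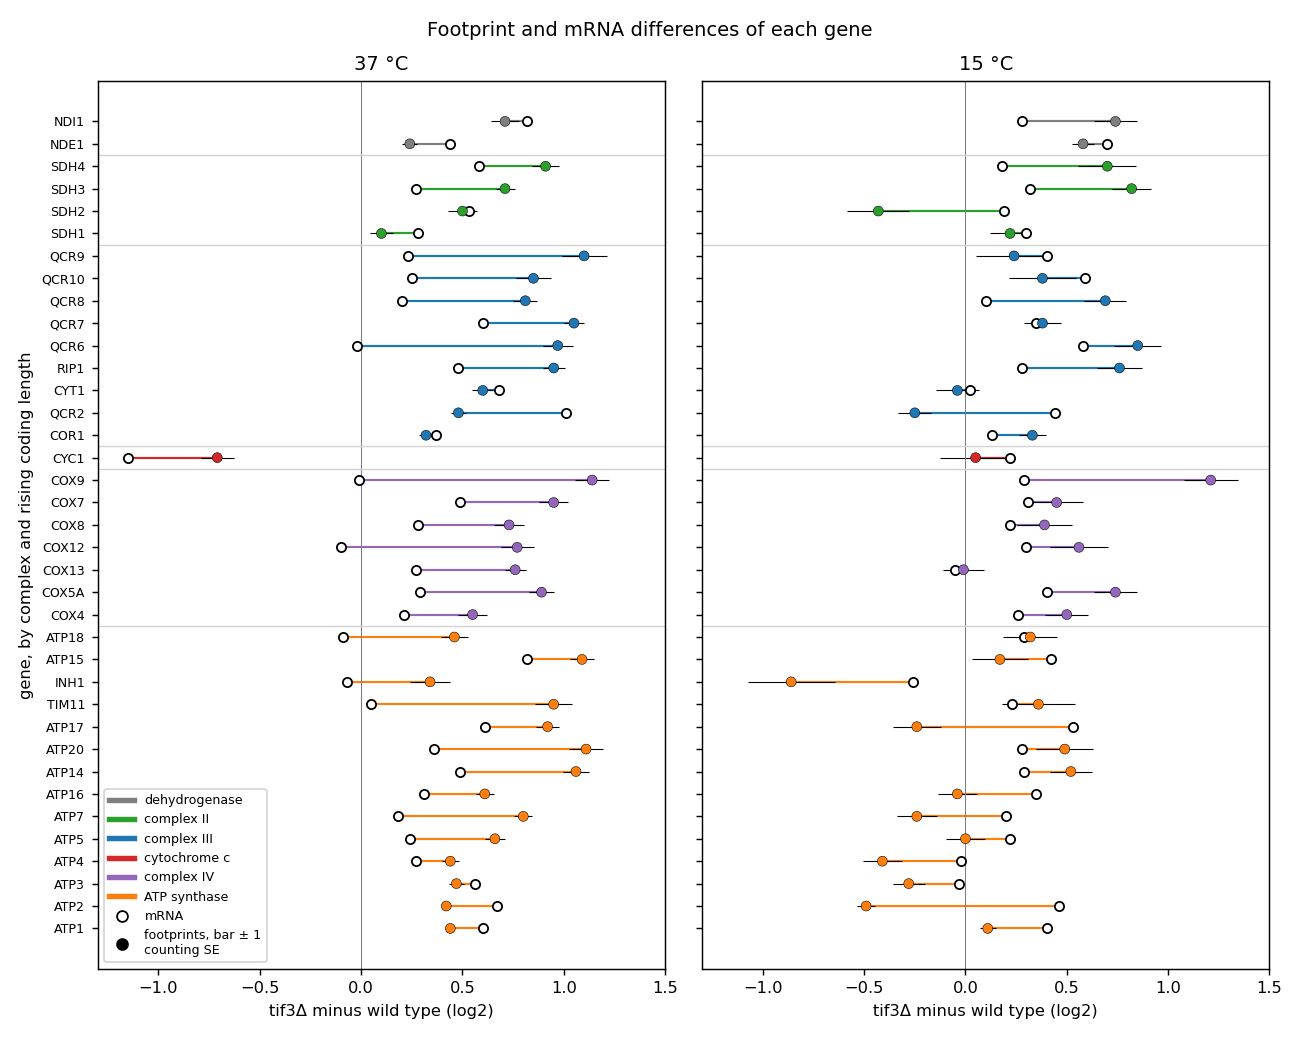
Differences of each gene in mRNA (open points) and footprints (filled points) at 37 °C (left) and 15 °C (right), log2, *tif3*Δ minus wild type, grouped by complex and ordered by coding length; bars are 1 counting standard error of the footprint difference and hold no replicate error. The line between the points is the TE difference. At 37 °C every gene but *CYC1* has a footprint point right of 0, and at 15 °C 7 of 14 ATP synthase genes lie left of 0 and *ATP5* at 0.00.

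CCAAT stood near the start codon of most members. In the 250 bases before the start codon, 32 of 37 members (86.5%) held CCAAT on either strand, against 35.7% of 5336 genes of the tables. The longer form TNATTGGT, which overlaps CCAAT on its other strand and was looked for after the data were seen, was in 14 members (37.8%) and in 4.44% of genes. In 500 bases the shares were 91.9% against 62.6% for CCAAT and 43.2% against 8.79% for the longer form. *CYC1*, *CYT1* and *COX4* had no CCAAT in 500 bases. A match describes letters only. For each complex with a match to the longer form, a matched stretch is shown. It is that of the gene with the highest footprint difference at 37 °C among those with the match in 250 bases (for complex II, in 500). Whether the motif bears on the differences was not tested. Sequences are from the RefSeq R64 genome, on the coding strand of the gene, 5′ to 3′, with the match in capitals. *NDI1* lies at chrXIII:30019-30043 (minus strand, 228 bases before the start codon), *SDH1* at chrXI:171431-171455 (minus, 318), *QCR7* at chrIV:1496714-1496738 (minus, 182), *COX12* at chrXII:225362-225386 (minus, 206) and *ATP15* at chrXVI:29937-29961 (plus, 134).
NDI1: tcattcggACCAATCAtatgaaggc
SDH1: gggggtggACCAATCAcagcgcaga
QCR7: ttgttttgACCAATCAggagcgacg
COX12: taacattgACCAATCAattttcaga
ATP15: ttatacgaACCAATGAaatttgatc
In all 5 the match reads ACCAAT on the coding strand, as in 16 of the 17 matches found in 16 members in 500 bases. These matches lay 10 to 351 bases before the start codon, and *NDE1* held 2 of them.

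At 37 °C the log2 mRNA of *HAP4* itself was 7.9 in wild type and 9.5 in *tif3*Δ with footprints of 8.55 and 8.86. The authors' deposited table gave 2.99-fold higher mRNA, 2.40-fold lower TE and 1.24-fold more footprints. At 15 °C *HAP4* mRNA was 1.69-fold and its footprints 1.53-fold higher in the authors' deposited table. Of 10 tested genes known for repression by glucose, *HAP4* among them, mRNA was higher for 8 at 37 °C (median 0.70) and for 9 at 15 °C (median 0.53), against 48.9% and 50.4% of all genes. TE of the same genes was lower for 7 at 37 °C (median -0.30) and for 5 at 15 °C (median 0.30). Of all genes, 47.4% and 50.3% had lower TE. Centred on genes of similar length, the TE medians of the list were -0.02 at 37 °C and 0.35 at 15 °C. Footprints were higher for 6 at 37 °C and for 7 at 15 °C, against 51.9% and 50.5% of all genes. Some of these genes had few footprints, such as *ICL1* at 37 °C (*tif3*Δ number near 9) and *ACS1* at 15 °C (near 3).

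The wider set of 96 genes around the same complexes (isoforms, assembly factors, activators of mitochondrial translation, ubiquinone synthesis and regulators) was near 0 in mRNA. At 37 °C, 44 of 94 tested were higher in mRNA and 50 lower, with a median of -0.01, against 31 of 37 and 0.29 for the structural subunits. Footprints were higher for 64 of 94 (median 0.22) and TE for 69 of 94 (median 0.25), against 51.9% and 52.6% of all genes, and TE relative to genes of similar length had a median of 0.02. TE was at least 1.5-fold higher for 16 (17.0%) and lower for 3 (3.19%), against 10.3% and 11.1% of all genes. The 3 were *HAP4*, *PET111*, a translational activator of a mitochondrially made oxidase subunit, and *COQ1*, the first enzyme of the ubiquinone side chain. Among the assembly factors of complex II, 5 of 5 had more footprints at 37 °C, 4 of them at least 1.5-fold, against 51.9% and 12.1% of all genes. At 15 °C 3 of these 5 had fewer footprints, 2 of them at least 1.5-fold, with a median of -0.36. Of all genes at 15 °C, 50.5% had more footprints and 20.7% were at least 1.5-fold lower. Those 2 genes rest on few footprints, about 40 and 66 in wild type and 6 and 7 in *tif3*Δ. At 37 °C *ATP19*, subunit k of the ATP synthase, had a footprint difference of 1.04 in the authors' deposited table. Also at 37 °C, the copper chaperone gene *COX17* had 1.76-fold and *PET117*, an assembly factor of complex IV, 2.57-fold lower mRNA in the authors' deposited table.

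At 15 °C most members were again higher in mRNA, while footprints and TE were more mixed. Footprints were higher for 26 of 37 (median 0.33), against 50.5% of all 5012 genes tested, and at least 1.5-fold higher for 8 and lower for 1, against 16.0% and 20.7%. TE was higher for 19 and lower for 18 (median 0.03), against 49.7% of all genes higher and 50.3% lower. It was at least 1.5-fold higher for 2 and lower for 5, against 13.9% and 18.9%. The mRNA was higher for 33 of 37 (median 0.29), against 50.4%, with 2 at least 1.5-fold higher and 0 lower, against 6.78% and 5.84%. Relative to genes of similar length the medians were 0.11 for mRNA, with 29 of 37 above, 0.08 for footprints and -0.02 for TE, against 50.0% of all genes above in mRNA. At least 1.5-fold above genes of their length were 1 member in mRNA, 4 in footprints and 1 in TE, against 5.23%, 14.6% and 14.1% of all genes. The Spearman correlation of TE difference and coding length was -0.21 across members and -0.07 across 5010 genes.

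The complexes had different TE medians at 15 °C, and the contrast between them was not tested. In complex IV all 7 genes had higher TE and 6 of 7 more footprints, against 49.7% and 50.5% of all genes. Their TE differences in the authors' deposited table ran from 0.05 (*COX13*) to 0.92 (*COX9*), with a median of 0.24. That of *COX13* is below the counting standard error of its footprint difference, 0.101. *COX9* mRNA was 7.2 in wild type and 7.5 in *tif3*Δ and its footprints were 7.62 and 8.8, or about 270 and 208. In the ATP synthase, TE was lower for 10 of 14 with a median of -0.28, against 50.3% of all genes lower. Footprints were higher for 7 (*ATP5* by 0.00 after rounding) and lower for 7. The ranges overlapped, since 4 ATP synthase genes had TE differences of 0.03 to 0.23 in the authors' deposited table. All 5 genes of the F1 part had lower TE. *ATP2* had mRNA of 11.4 and 11.8 with footprints of 11.96 and 11.5, and its TE difference of -0.96 in the authors' deposited table was the lowest of all members. Those of *ATP1*, *ATP3*, *ATP15* and *ATP16* lay between -0.38 and -0.25 in the same deposited table. *ATP1* and *ATP2*, close in density in wild type with a ratio of 0.875, stood at 1.33 in *tif3*Δ, where *ATP2* was at 1.84 footprints per coding nucleotide and *ATP1* at 2.44. Of the stalk genes *ATP4*, *ATP5* and *ATP7* had lower and *ATP14* higher TE. The membrane subunit gene *ATP17* had mRNA of 8.1 and 8.6, footprints of 8.95 and 8.7 and a TE difference of -0.78 in the authors' deposited table. The dimer interface genes *TIM11* and *ATP20* were on the other side, at 0.13 and 0.21 in the authors' deposited table, as was *ATP18* at 0.03. *INH1* had mRNA of 6.6 and 6.4 with footprints of 7.74 and 6.9, and its footprint difference of -0.86 in the authors' deposited table, on about 294 and 54 footprints, was the lowest of all members.

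In complex II at 15 °C the anchors had higher TE and the catalytic subunits lower TE, that of *SDH1* only slightly. *SDH3* footprints were 8.76 in wild type and 9.6 in *tif3*Δ and those of *SDH4* 7.72 and 8.4, with TE differences of 0.50 and 0.52 in the authors' deposited table. *SDH2* footprints were 8.36 and 7.9, and the authors' deposited table gave a TE difference of -0.63 for *SDH2* and -0.08 for *SDH1*. That of *SDH1* is smaller than the counting standard error of its footprint difference, 0.101. Relative to genes of similar length, TE stood at 0.44 and 0.46 for *SDH3* and *SDH4* and at -0.02 and -0.67 for *SDH1* and *SDH2*. The *SDH2* to *SDH1* ratio of density was 1.49 in wild type and 0.944 in *tif3*Δ. In complex III, *QCR2* again had the lowest TE difference, -0.69 in the authors' deposited table, with footprints of 10.03 and 9.8. *COR1* had a TE difference of 0.20 in the authors' deposited table, and the ratio of *COR1* to *QCR2* density was 0.938 in wild type and 1.41 in *tif3*Δ. *QCR8* and *RIP1* had the highest TE differences of the complex, 0.59 and 0.48 in the authors' deposited table. Both dehydrogenases had more footprints, *NDI1* by 0.74 and *NDE1* by 0.58 in the authors' deposited table. *CYC1*, so different at 37 °C, had mRNA of 6.3 and 6.5 and footprints of 7.54 and 7.6.

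Across the temperatures, 25 of 37 members had more footprints in *tif3*Δ at both and 11 had more at 37 °C and fewer at 15 °C, 7 of which are ATP synthase genes. In mRNA 28 were higher at both, and in TE 17 were higher and 8 lower at both. The footprint difference was larger at 37 °C than at 15 °C for 30 of 37 members, and for 14 of 14 ATP synthase genes, as was their TE difference. Shares of all genes were not computed for these counts across the temperatures. In the shortest length class the median TE difference of all genes was 0.51 at 37 °C and 0.07 at 15 °C. Relative to genes of similar length, TE was not larger at 37 °C for *ATP3* (-0.24 against -0.22) and *ATP14* (0.06 against 0.16). The wild-type groups of the 2 experiments and their libraries are distinct, and the difference between temperatures was not tested. *COX9*, *RIP1*, *SDH3* and *SDH4* were among the members with higher TE and more footprints at both temperatures. *QCR2* and *ATP2* were among those with lower TE and higher mRNA at both. Of the wider set at 15 °C, 41 of 90 had higher TE and 43 of 90 higher mRNA, against 49.7% and 50.4% of all genes. In ubiquinone synthesis 8 of 10 genes had lower TE, against 50.3% of all genes, and 1 was at least 1.5-fold lower, against 18.9%. That gene was *COQ1*, at -1.59 in the authors' deposited table, with footprint numbers of about 313 and 29 in the 2 genotypes. *MSS51*, a translational activator of a mitochondrially made oxidase subunit, had a TE difference of -1.58 in the authors' deposited table, on about 515 and 49 footprints.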

How the data were processed

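Per the labels, footprints and mRNA were sequenced from 2 genotypes at 2 temperatures, and groups come from the sample titles. The build sacCer2 and the tools TopHat2 2.0.7, Bowtie2 2.0.6, DESeq and CASAVA 1.8 are named, with no order, per the submitters' processing notes. The authors' deposited values are log2 normalised reads, 1 per gene and group, with their log2 differences, which equal the group values' differences within rounding (0.0996 at most). The tables list 5330 genes at 37 °C and 5190 at 15 °C. No source used here says how 2 libraries became 1 value, or whether they came from separate cultures. Because TE is the footprint minus the mRNA difference, TE and mRNA are not independent.

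Genes needed a mean normalised value of 10 in both library types, and footprints in both genotypes for TE. *TIF3* was left out of all counts. With no single library, the linear model named in the design could not be fitted, and counts at 1.5-fold, medians and the same over all genes tested replaced it. The spacing of the lowest footprint values gave the value of 1 footprint (0.735 and 1.08 in wild type and *tif3*Δ at 37 °C, 0.728 and 2.18 at 15 °C), from which approximate footprint numbers come. Of these low values, 97.5%, 100%, 85.7% and 84.8% lay within 0.15 of a whole number, so those at 15 °C are less sure. The footprint numbers and densities of *tif3*Δ use the wild-type value plus the authors' difference. Coding lengths and sequences come from RefSeq R64, joined by systematic name, and no coordinate of the authors' build was used. The medians and the spacing method were tested on simulated data. Python 3.11.15, pandas 2.3.3, NumPy 2.4.6, SciPy 1.17.1 and Matplotlib 3.10.9 were used. The members, lists and comparisons were chosen with earlier results of these data known, so their medians are not independent support. The rule for named genes was all members, *TIF3*, *HAP4*, and genes of the wider set and of the glucose-repressed list at least 1.5-fold apart with a mean of 32 or more, up to the 6 largest per direction, difference and temperature; *CYC7* and *COX5B* were named after their values were seen. Other folds, minimums and centrings were tried.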

Additional observations from a re-analysis of the deposited data

Results flagged for a closer look

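Members whose difference had opposite signs at the 2 temperatures and a gap of at least 1 log2 unit were singled out, a size chosen after the values were seen. The difference between temperatures was not tested, as each value is 1 group against 1 group. *ATP17* differed between 37 °C and 15 °C by 1.17 in footprints and 1.09 in TE, *ATP7* by 1.05 and 1.07, and *INH1* by 1.21 and 1.02. For *QCR9* the gap was 1.03 in TE. Relative to genes of similar length, TE at 37 °C and 15 °C was -0.20 and -0.85 for *ATP17* and 0.25 and -0.50 for *ATP7*. It was -0.10 and -0.68 for *INH1* and 0.36 and -0.23 for *QCR9*. How many of all genes have such a gap was not counted, so whether these members are unusual was not tested. *CYC1* mRNA was the only member with the gap in the other direction among those singled out, at -1.37, being lower at 37 °C and slightly higher at 15 °C in *tif3*Δ. The value of *INH1* at 15 °C rests on about 54 *tif3*Δ footprints.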

How the results depend on the processing

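Of 166 recomputed medians and counts over the members or the wider set, 128 stayed within 0.1 log2 units or 1.5 times of the reported value. All members pass the minimums of 10 and 32, so removing or raising the minimum could not change the member values counted here. The TE median at 15 °C, 0.03, changed sign within that margin in some settings, as to -0.02 when centred on genes of similar coding length. Centring on genes of similar coding length took the TE median at 37 °C from 0.44 to -0.02, and those of complex II, cytochrome c, complex IV and the ATP synthase to -0.02, -0.07, -0.02 and -0.04, leaving 1 member at least 1.5-fold higher in TE and 1 lower. Footprint and mRNA medians at 37 °C became 0.52 and 0.51, with 15 and 14 members at least 1.5-fold higher. At 15 °C they became 0.08 and 0.11, with 4 and 1 members higher and 1 in TE, and *CYC1* mRNA moved to -0.01. Without members under 400 nt, added after the data were seen, TE, footprint and mRNA medians were 0.07, 0.58 and 0.41 at 37 °C, and at 15 °C TE -0.10 and footprints 0.16. Without complex IV the TE median at 15 °C was -0.14, and without the ATP synthase it was 0.17, with a footprint median of 0.45. At 1.3-fold, 21 members were higher and 1 lower in TE and 15 higher in mRNA at 37 °C; at 15 °C 6 were higher and 8 lower in TE, 16 higher and 4 lower in footprints and 10 higher in mRNA. At 2-fold, 1 was higher in TE, 6 higher and 0 lower in footprints and 1 higher in mRNA at 37 °C, and at 15 °C 0 were higher and 0 lower in TE, 1 higher and 0 lower in footprints and 0 higher in mRNA. The shares of all genes past 1.3-fold and 2-fold were not computed, so the member counts at these folds have no background beside them. Centring on all genes left 1 member higher in mRNA at 15 °C. Counts were not recomputed where members were left out. No paired analysis was possible because the columns hold groups, not single libraries, and no replicate could be left out for the same reason. Depth limits the 15 °C values of *tif3*Δ most.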
